A study of Drosophila melanogaster with 6 samples.

Results

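The genes described here encode the mitochondrial clan cytochrome P450s of *Drosophila melanogaster*, apart from the enzymes of ecdysteroid synthesis. They were chosen by gene symbol, and all 9 (*Cyp12a4*, *Cyp12a5*, *Cyp12b2*, *Cyp12c1*, *Cyp12d1-d*, *Cyp12d1-p*, *Cyp12e1*, *Cyp49a1* and *Cyp301a1*) were found among the 17558 genes counted. Their transcripts were measured by RNA sequencing in fat body cells dissociated from adult female abdomens, in 3 *Luc* control RNAi and 3 *svp* RNAi libraries, to ask which genes change when the nuclear receptor gene *svp* is targeted. All females had a *y w* background and carried the oenocyte driver *PromE800-Gal4*, the adipocyte driver *3.1Lsp2-Gal4* and the temperature-sensitive repressor *tubGal80ts*. Control females also carried the luciferase hairpin *UAS-Luc* JF01355 and the others the hairpin *UAS-svp* GD1546. These hairpins come from different stock collections, so that a difference between the groups by hairpin target and one by stock background cannot be told apart. The sample labels give the control genotype as wild type. Flies were raised at 18 °C, collected as females 0 to 2 days old and later kept at 29 °C for 5 days, with 100 females pooled for each sample.

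Cytochrome P450s are heme enzymes that insert an oxygen atom into a substrate. Those of the mitochondrial clan receive electrons from adrenodoxin reductase through a ferredoxin, whereas the microsomal P450s receive them from cytochrome P450 reductase in the endoplasmic reticulum. In insects the clan holds the last enzymes of ecdysteroid synthesis as well as enzymes, many of them of the CYP12 family, that have been linked to the metabolism of foreign compounds. The fat body, together with the midgut and the Malpighian tubules, is a main site of detoxification in the fly.

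Library totals ranged from 15648948 to 19476599 fragments, and each of the 9 genes had at least 21 counts in every library. The factors of edgeR's TMM scaling, which corrects library totals for unequal composition, ranged from 0.824 to 1.39, with *Luc* control replicate 1 the highest, so results are given with and without that library. The targeted gene, *svp*, was not lower in the libraries labelled *svp* RNAi, called *svp*-labelled libraries in what follows. Its FPKM, the fragment count divided by transcript length and by the library total, was 11.4, 18.5 and 18.6 in the controls and 21.7, 22.1 and 24.3 in those libraries. By RT-qPCR, a different measure, the authors reported a modest but significant decrease of *svp* transcript in the knockdown fat bodies. The reason for this difference was not tested. The summed FPKM of 8 adult fat body markers, most of it from the yolk protein genes, was 47827 to 80778 in the controls and 89441 to 99370 in the *svp*-labelled libraries. No listed marker of fat body, oenocyte, Malpighian tubule, midgut, ovary, muscle, hemocyte or neuron was at 0 in all 6 libraries. In dissociated tissue, fewer cells of a type and less RNA per cell cannot be told apart.

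The levels of the 9 transcripts spanned a wide range in the control fat body. *Cyp12a4* was the most abundant at 75.3 ± 19.1 FPKM (SD, n = 3), and *Cyp301a1* the least at 1.23 ± 0.806 FPKM. Between them came *Cyp12c1* at 14.6 ± 4.93 FPKM, *Cyp12d1-d* at 12.8 ± 1.60 FPKM and *Cyp12a5* at 7.79 ± 1.60 FPKM, followed by *Cyp12b2*, *Cyp12e1*, *Cyp12d1-p* and *Cyp49a1* at means of 7.11, 5.91, 5.70 and 4.30 FPKM. In this order the ranges of *Cyp12c1* and *Cyp12d1-d* overlapped, as did those of each pair of neighbours from *Cyp12a5* down to *Cyp49a1*, so the order within these stretches was not resolved. *Cyp12a4* stood clear of *Cyp12c1*, *Cyp12d1-d* of *Cyp12a5* and *Cyp49a1* of *Cyp301a1*. Among 85 genes with a *Cyp* symbol, *Cyp12a4* ranked 7th by mean control FPKM, *Cyp12c1* 27th, *Cyp12d1-d* 28th and *Cyp301a1* 59th. The median of the 81 *Cyp* genes with a count was 4.78 FPKM, and 7 of the 9 genes lay above it.

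**Figure D1:**
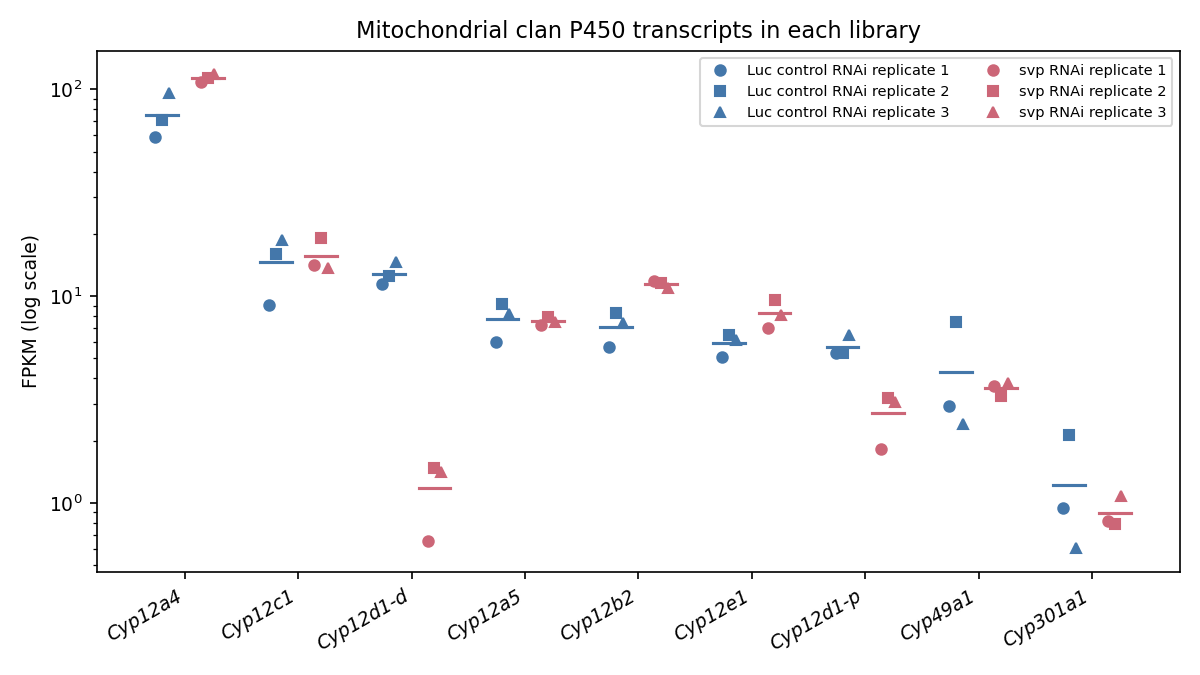
FPKM (log axis) of the 9 mitochondrial clan P450 genes in each library, with blue for *Luc* control RNAi, red for *svp*-labelled libraries, a marker shape for each replicate and a bar at each group mean. The controls of *Cyp12d1-d* sit between 11.4 and 14.6 FPKM and the other libraries between 0.652 and 1.48 FPKM. On the log axis this is the widest gap among the 9 genes.

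In the *svp*-labelled libraries the order was the same at the top but not below it. *Cyp12a4* had a mean of 113 ± 5.00 FPKM (SD, n = 3) and *Cyp12c1* one of 15.6 ± 2.97 FPKM. *Cyp12d1-d*, 3rd in the controls, was 8th at 1.18 ± 0.462 FPKM, where its range overlapped that of *Cyp301a1* at 0.897 ± 0.159 FPKM. *Cyp12d1-p* was 7th and *Cyp12b2* 3rd, and apart from the pairs *Cyp12e1* and *Cyp12a5*, and *Cyp12d1-d* and *Cyp301a1*, no neighbours in this order overlapped.

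With edgeR's quasi-likelihood test over all 9277 genes tested, and a Benjamini-Hochberg adjusted p of 0.05 as the threshold, none of the 9 genes passed (0 of 9), against a background of 9 genes or 0.097% of those tested. At an unadjusted p under 0.05, edgeR gave 2 of the 9, *Cyp12d1-d* and *Cyp12d1-p*, both lower in the *svp*-labelled libraries. The background was 4.99% of all genes tested, and 2.88% for lower genes alone. DESeq2 called 1 of the 9, *Cyp12d1-d*, which was lower, against a background of 1.23% of the 11875 genes it tested and 0.707% for lower genes alone. Without *Luc* control replicate 1, edgeR also called *Cyp12d1-d* alone, against a background of 0.641%, or 0.473% for lower genes. *Cyp12d1-d* was likewise the single gene of the 9 called by edgeR with no filter on low counts (background 0.186%), by edgeR with the replicate number as a block (0.291%) and by limma on log2(FPKM + 1) and log2(FPKM + 0.1) (0.593% and 0.571%). Both *Cyp12d1* copies were called by DESeq2 without *Luc* control replicate 1 (background 4.79%) and by limma voom with sample quality weights (6.51%), which were tried after seeing the data. The median log2 fold change of the 9 genes was -0.16 and that of all genes tested -0.06.

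FPKM values of the groups did not overlap for 5 of the 9 genes. *Cyp12a4*, *Cyp12b2* and *Cyp12e1* had higher values in the *svp*-labelled libraries, while *Cyp12d1-d* and *Cyp12d1-p* had lower ones. The background was 12.1% of the genes tested by edgeR, of which 7.73% were higher and 4.37% lower. Outside these 9 genes, 72 *Cyp* genes had a count, and of these 17 were higher and 11 lower without overlap. Among all 13475 genes with a count, 883 were higher and 528 lower without overlap. FPKM without overlap was thus also seen among other *Cyp* genes. On CPM, counts scaled by the library total and the TMM factor, 3 of the 9 did not overlap, namely *Cyp12b2*, *Cyp12d1-d* and *Cyp12d1-p*, against a background of 9.32%, of which 4.51% were higher and 4.82% lower. With 3 libraries against 3, an exact two-sided permutation test cannot give a p below 0.1, so no gene could pass 0.05 by that test alone.

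**Figure D2:**
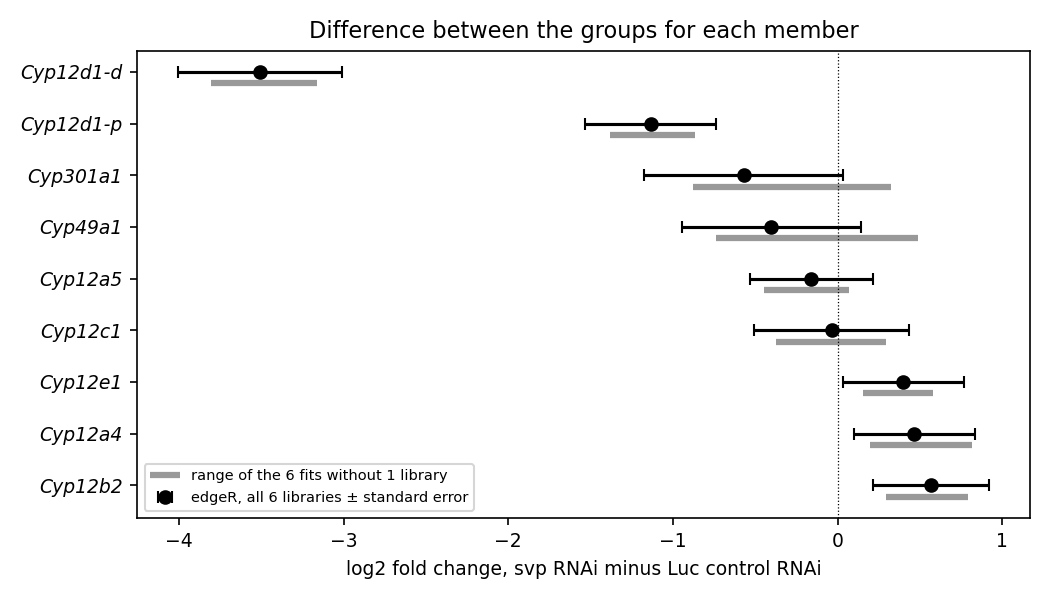
Log2 fold change of each of the 9 genes, *svp*-labelled libraries minus *Luc* control RNAi, from edgeR with all 6 libraries (point, with bars of 1 standard error) and the range of the 6 fits that leave out 1 library (gray line). *Cyp12d1-d* lies at -3.51 with a range of -3.81 to -3.16, while the ranges of *Cyp12a5*, *Cyp12c1*, *Cyp49a1* and *Cyp301a1* include 0.

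*Cyp12d1-d* (FBgn0053503) had the largest difference of the 9 genes. It and its neighbour *Cyp12d1-p* (FBgn0050489) are near-identical tandem copies, and *Cyp12d1* is known to be induced by phenobarbital and caffeine and to give resistance to DDT and dicyclanil when overexpressed. *Cyp12d1-d* lies on the minus strand of chromosome 2R from 11123658 to 11125647 in the coordinates of the files, which match the BDGP6 annotation. *Cyp12d1-p* lies on the same strand from 11117225 to 11121884, with 1773 bases and the pseudogene *CR46420* between them. Each annotated transcript of either copy has 4 exons and a coding length of 1563 bases. *Cyp12d1-p* has 2 annotated transcripts, of 1741 and 4482 bases, which differ in their 3′ UTRs of 142 and 2883 bases, whereas *Cyp12d1-d* has 1 transcript of 1812 bases with a 3′ UTR of 216 bases.

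*Cyp12d1-d* was counted 350, 400 and 473 times in *Luc* control replicates 1, 2 and 3, and 23, 42 and 43 times in *svp*-labelled replicates 1, 2 and 3. As FPKM these were 11.4, 12.5 and 14.6 in the controls and 0.652, 1.48 and 1.42 in the others. Every control was far above the highest *svp*-labelled library, and replicate 1 was the lowest of each group. The log2 fold change in edgeR was -3.51 (SE 0.50), an 11.4-fold lower level, with an unadjusted p of 2.3e-04 and an adjusted p of 0.0921, which ranked 23rd of 9277 genes by p. DESeq2 gave an adjusted p of 1.5e-10 with a log2 fold change of -3.51 (SE 0.48). Without *Luc* control replicate 1, edgeR gave -3.75 (SE 0.42) and an adjusted p of 0.0211. Leaving out any other single library kept the log2 fold change between -3.81 and -3.16, with adjusted p-values in edgeR of up to 0.425.

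*Cyp12d1-p* was counted 280, 291 and 362 times in the controls and 111, 157 and 161 times in the *svp*-labelled libraries. Its FPKM was 5.31, 5.31 and 6.48 in the controls and 1.83, 3.22 and 3.09 in the others, so that these groups did not overlap either. It differed by a log2 fold change of -1.13 (SE 0.40), a 2.20-fold lower level, with an unadjusted p of 0.0255 and an adjusted p of 0.806 in edgeR. The adjusted p was 0.321 in DESeq2, and 0.178 in edgeR without *Luc* control replicate 1, where the log2 fold change was -1.34.

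The copies did not differ between groups by the same amount. The ratio of *Cyp12d1-d* to *Cyp12d1-p* counts, which does not depend on how libraries are scaled, was 1.25, 1.38 and 1.31 in the controls and 0.207, 0.268 and 0.267 in the *svp*-labelled libraries. *Cyp12d1-d* thus had the higher count of the pair in every control library and the lower count in every other library. The mean log2 ratio was 0.39 ± 0.07 (SD, n = 3) in the controls and -2.03 ± 0.21 in the *svp*-labelled libraries, a difference of -2.41 or 5.33-fold. This difference had a p of 0.1 in an exact two-sided permutation test, the smallest that 3 against 3 allows.

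The deposited FPKM of *Cyp12d1-p* rests on 3112 bases, the mean of its transcripts, so its level beside *Cyp12d1-d* depends on which transcript was present. With the shorter transcript as the length, the per-base ratio of *Cyp12d1-d* to *Cyp12d1-p* was 1.20 to 1.32 in the controls and 0.199 to 0.257 in the *svp*-labelled libraries. With the longer transcript it was 3.09 to 3.40 in the controls and 0.513 to 0.662 in the others. The choice of length moved both groups alike, and *Cyp12d1-d* was the higher of the pair in the controls and the lower in the other libraries with either length.

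How reads that match both copies were assigned is not given in the sources used here, so the division of counts between them is uncertain. Summed over the pair, there were 630, 691 and 835 counts in the controls against 134, 199 and 204 in the *svp*-labelled libraries. The highest of the latter was below the lowest control. When the summed count replaced the separate copies, edgeR gave a log2 fold change of -2.02 (SE 0.41), with an unadjusted p of 0.00195 and an adjusted p of 0.276. The pair is known to vary in copy number among fly strains, and the number of copies in these stocks was not tested.

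**Figure D3:**
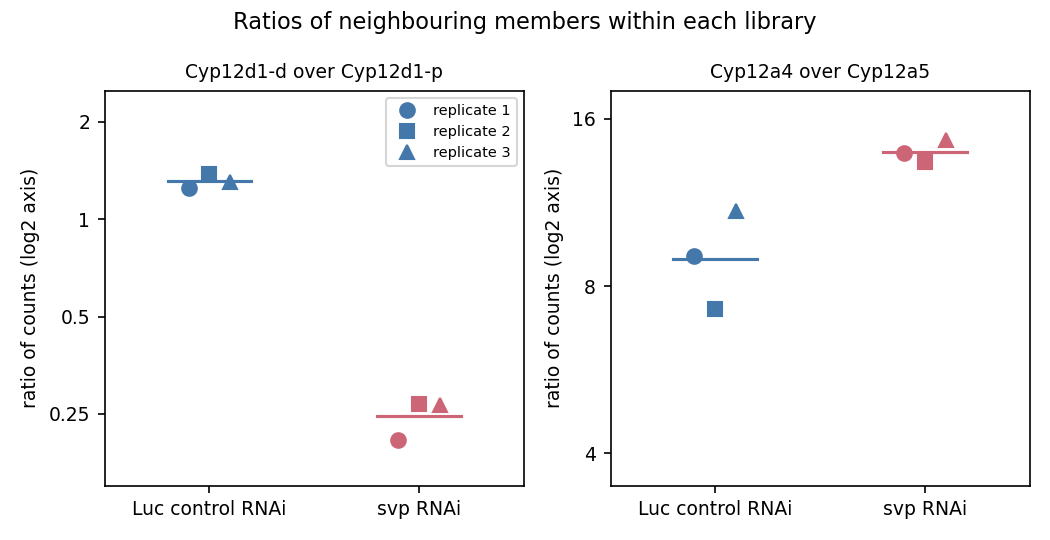
Ratio of counts between neighbouring genes in each library (log2 axis), for *Cyp12d1-d* over *Cyp12d1-p* on the left and *Cyp12a4* over *Cyp12a5* on the right, with a bar at the mean of the log2 ratios of each group. The left ratio is 1.25 to 1.38 in the controls and 0.207 to 0.268 in the *svp*-labelled libraries, and the right ratio is 7.28 to 10.9 and 13.4 to 14.7.

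*Cyp12a4* (FBgn0038681), whose overexpression is known to give resistance to the insecticide lufenuron, lies on the plus strand of chromosome 3R from 19135158 to 19137136, 453 bases beyond its neighbour *Cyp12a5* (FBgn0038680; 3R, 19132648 to 19134704). Control counts of *Cyp12a4* were 1683, 2132 and 2923, and it had 3570, 3021 and 3348 in the *svp*-labelled libraries. Its FPKM was 58.5, 71.3 and 96.0 in the controls and 108, 114 and 118 in the others, with replicate 1 the lowest control. On TMM scaling the CPM was 71.7, 145 and 198 in the controls and 162, 216 and 194 in the others, so that the groups overlapped. The log2 fold change in edgeR was 0.47 (SE 0.37), with an unadjusted p of 0.247 and an adjusted p of 1.00. Without *Luc* control replicate 1 it was 0.20 (SE 0.20), with an adjusted p of 0.647 in edgeR.

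The fat body marker sum was likewise lowest in *Luc* control replicate 1, at 47827 FPKM, and higher in each *svp*-labelled library than in any control. Of these 8 markers, 4 had FPKM values that were higher in the *svp*-labelled libraries without overlap, beside 7.73% of the genes tested by edgeR. The log2 fold change was above 0 for 5 of the 7 tested and below it for 2, *Lsd-1* (-0.29, SE 0.35) and *bmm* (-0.25, SE 0.34). In edgeR 0 of the 7 were called, also at an unadjusted p under 0.05. DESeq2 called 0 as well. Midgut markers summed to 2373 FPKM in *Luc* control replicate 1 and to 230 to 1071 in the other 5 libraries. Malpighian tubule markers summed to 37.9 to 64.0 FPKM in the controls and 45.6 to 102 in the *svp*-labelled libraries, and oenocyte markers to 2634 to 7248 and 4486 to 6080. Of the 4 oenocyte, 7 Malpighian tubule and 7 midgut markers tested, edgeR and DESeq2 each called 0. At an unadjusted p under 0.05 in edgeR, beside 4.99% of all genes tested, there were 4 of these, all higher in the *svp*-labelled libraries. They were the oenocyte marker *CG17374* (log2 fold change 1.35, SE 0.50), the tubule markers *Irk3* (1.64, SE 0.50) and *salt* (2.00, SE 0.63) and the midgut marker *Amy-p* (0.66, SE 0.22). The FPKM of *CG17374* was 14.3 to 35.5 in the controls and 56.1 to 63.9 in the others without overlap, whereas the groups overlapped for the other 3. Other markers went the opposite way. The log2 fold change was below 0 for 1 oenocyte marker, *Cyp4g1* (-0.12, SE 0.61), and 1 tubule marker, *Best2* (-0.39, SE 0.40). It was below 0 for 5 of the 7 midgut markers tested. The part of these tissue differences in the FPKM of *Cyp12a4*, *Cyp12b2* and *Cyp12e1* was not tested.

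*Cyp12a5* had a lower level and no such pattern. Its FPKM was 6.03, 9.14 and 8.21 in the controls and 7.25, 7.94 and 7.49 in the *svp*-labelled libraries, all of the latter lying within the control range. In edgeR it differed by -0.16 (SE 0.37) on the log2 scale, with an adjusted p of 1.00, and by -0.44 (SE 0.22) without *Luc* control replicate 1, with one of 0.414. The ratio of *Cyp12a4* to *Cyp12a5* counts was 9.05, 7.28 and 10.9 in the controls and 13.9, 13.4 and 14.7 in the *svp*-labelled libraries. All 3 of the latter exceeded all controls, by a mean of 0.64 on the log2 scale or 1.56-fold, with a p of 0.1 in the exact two-sided permutation test. The annotated transcripts of these neighbours have the same coding length of 1608 bases.

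*Cyp12b2* (FBgn0034387) lies on chromosome 2R from 18754995 to 18757083. Its control counts were 171, 259 and 237, beside 410, 322 and 326 in the *svp*-labelled libraries. The FPKM values were 5.66, 8.25 and 7.41 in the controls and 11.8, 11.5 and 10.9 in the others. *Cyp12b2* was the only one of the 9 genes that was higher without overlap both as FPKM and as CPM. The log2 fold change of 0.57 (SE 0.35) had an unadjusted p of 0.153 and an adjusted p of 1.00 in edgeR, and without *Luc* control replicate 1 it was 0.30 (SE 0.21). *Cyp12b2* shares 10 exonic bases with *Jabba*, a lipid droplet protein gene on the opposite strand that differed by 0.09 (SE 0.31) on the log2 scale, and the library kit as named does not mark strand.

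*Cyp12e1* (FBgn0037817; 3R, 10434789 to 10436704) had control counts of 140, 186 and 178, and 222, 244 and 221 in the *svp*-labelled libraries. Its FPKM was 5.10, 6.52 and 6.12 in the controls and 7.03, 9.62 and 8.15 in the others, with no overlap but a gap of less than 1 FPKM. The log2 fold change was 0.40 (SE 0.37) with an adjusted p of 1.00 in edgeR, and 0.15 without *Luc* control replicate 1.

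*Cyp12c1* (FBgn0036806; 3L, 18684259 to 18686319) had the second highest mean level in both groups and no resolved difference. Its FPKM was 9.11, 15.9 and 18.7 in the controls and 14.1, 19.0 and 13.7 in the *svp*-labelled libraries. The lowest and next to highest of the 6 values were both controls, and the log2 fold change was -0.04 (SE 0.47) with an adjusted p of 1.00 in edgeR. Without *Luc* control replicate 1 it was -0.38 (SE 0.27), with an adjusted p of 0.521, and without *Luc* control replicate 3 it was 0.29 (SE 0.52).

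The remaining genes, *Cyp49a1* and *Cyp301a1*, belong to other families of the clan, and in each the same control library stood apart. *Cyp49a1* (FBgn0033524; 2R, 10449350 to 10458892) had control counts of 111, 295 and 96, beside 159, 114 and 142 in the *svp*-labelled libraries. As FPKM, *Luc* control replicate 2 stood at 7.53 and the other 5 libraries between 2.41 and 3.82. The log2 fold change in edgeR was -0.40 (SE 0.54) with all libraries and 0.49 (SE 0.28) without *Luc* control replicate 2, with adjusted p-values of 1.00 and 0.933. The *Cyp49a1* locus overlaps *Galphao*, a G protein subunit gene on the opposite strand, but their annotated exons share 0 bases.

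*Cyp301a1* (FBgn0033753; 2R, 12566185 to 12569061), which is required for the adult abdominal cuticle, had control counts of 31, 73 and 21, beside 31, 24 and 35 in the *svp*-labelled libraries. Its FPKM in *Luc* control replicate 2 was 2.14, against 0.603 to 1.08 in the other 5 libraries. Its log2 fold change was -0.57 (SE 0.60) in edgeR and 0.32 (SE 0.44) without *Luc* control replicate 2. *Cyp301a1* shares 48 exonic bases with *Ak6* on the opposite strand, which differed by 0.16 (SE 0.26). Muscle markers, of which 7 of 8 were tested and 0 called by edgeR or DESeq2, also 0 at an unadjusted p under 0.05 in edgeR, summed to 573 FPKM in *Luc* control replicate 2 and to 149 to 260 in the other 5 libraries. The sums of neuron and oenocyte markers were also highest in *Luc* control replicate 2. They were 7.55 and 7248 FPKM there, against 3.73 to 5.02 and 2634 to 6080 in the other 5 libraries. Most of the oenocyte sum in that library was *Cyp4g1*, at 6933 FPKM. The oenocyte markers *eloF*, *v(2)k05816* and *CG17374* were highest in *svp*-labelled libraries, at 248, 60.9 and 63.9 FPKM. In *Luc* control replicate 2 these were at 233, 46.9 and 35.5 FPKM. Among neuron markers, *elav*, *nSyb* and *Syt1* were highest in *Luc* control replicate 2, but *brp* was highest in *Luc* control replicate 1. Without *Luc* control replicate 1, the log2 fold changes were -0.74 (SE 0.46) for *Cyp49a1* and -0.88 (SE 0.59) for *Cyp301a1*. The part of muscle, neuron or oenocyte content in the *Cyp49a1* and *Cyp301a1* values was not tested.

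Summed over the 9 genes, FPKM was 105, 139 and 161 in the controls and 155, 171 and 168 in the *svp*-labelled libraries, so that the groups overlapped. The make-up of the sum differed more than its size. *Cyp12a4* took 55.7 ± 4.20% (SD, n = 3) of it in the controls and 68.9 ± 1.96% in the others. The share of *Cyp12d1-d* was 9.65 ± 1.04% in the controls and 0.711 ± 0.253% in the others, and that of *Cyp12d1-p* was 4.31 ± 0.656% and 1.64 ± 0.398%. The shares did not overlap between the groups for these 3 genes, nor for *Cyp12b2*, which took 5.32 ± 0.668% and 6.97 ± 0.570%, and *Cyp12a5*, which took 5.82 ± 0.741% and 4.60 ± 0.111%. Shares of a sum are not independent, since a larger share for any gene leaves less for the others. The FPKM of *Cyp12a5* itself overlapped between the groups. No background over all genes exists for such shares. By contrast, *Cyp12c1* took 10.6 ± 1.67% and 9.48 ± 1.53%. The 9 genes together took 2.21 ± 0.518% of the FPKM summed over all 85 *Cyp* genes in the controls and 2.35 ± 0.199% in the *svp*-labelled libraries, a difference smaller than the control spread.

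**Figure D4:**
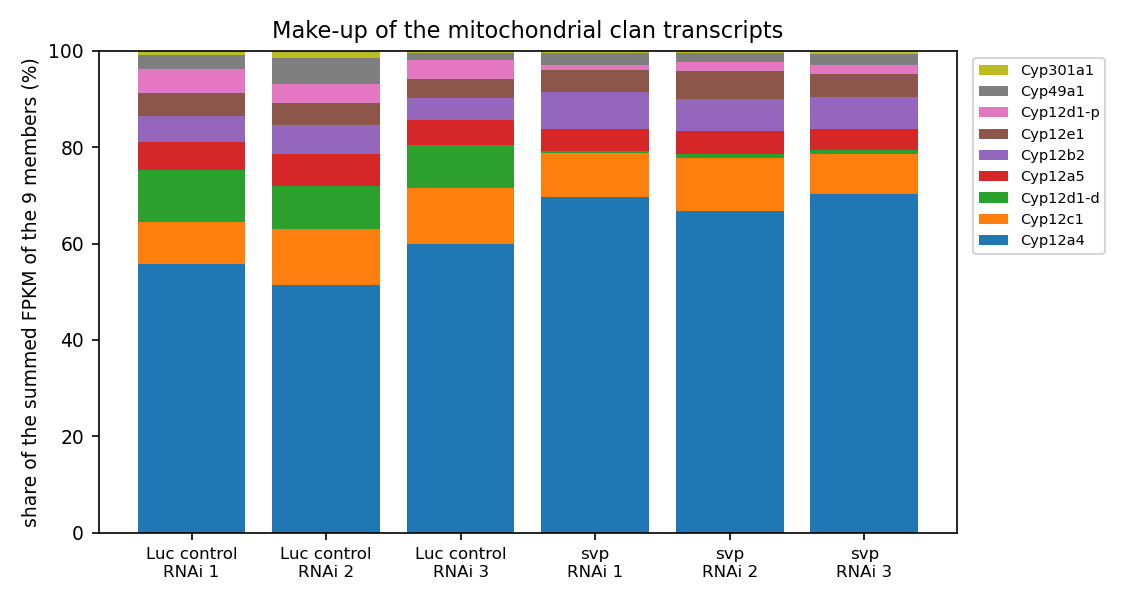
Share of the summed FPKM of the 9 genes that each gene took (percent, stacked from 0 to 100) in each library. *Cyp12a4* fills 51.4 to 59.8% of the control bars and 66.7 to 70.4% of the bars of *svp*-labelled libraries, and the band of *Cyp12d1-d* goes from at least 9.04% to at most 0.868%.

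Across the 6 libraries, the log2 CPM of *Cyp12a4* followed that of *Cyp12b2* and *Cyp12e1* with Pearson's r of 0.938 and 0.919. With *Cyp12d1-d* the r of *Cyp12a4* was -0.313. *Cyp12c1* followed *Cyp12a5* with an r of 0.956. Over all 9277 genes tested, the genes most like *Cyp12a4* were the P450 gene *Cyp28d1*, *CG8468* and the transcription factor gene *ap* (r of 0.998 each). Those most like *Cyp12c1* were *Dmtn*, *pirk* and *CG8051* (r of 0.998, 0.997 and 0.997). These are descriptions over 6 libraries of both groups that share their scaling, in which *Luc* control replicate 1 was low for *Cyp12a4* and *Cyp12c1* alike.

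The genes that supply mitochondrial P450s with electrons were measured at similar levels in both groups. *dare* encodes adrenodoxin reductase, and *Fdxh* and *CG1319* encode ferredoxins. None of the 3 passed in edgeR (0 called, and 0 at an unadjusted p under 0.05) or DESeq2 (0 called), and their median log2 fold change was -0.08. *CG1319*, the most abundant, had 53.2, 30.1 and 35.9 FPKM in the controls and 52.5, 43.1 and 46.2 in the *svp*-labelled libraries (log2 fold change 0.24, SE 0.18). *Fdxh* had 8.53, 5.45 and 6.90 FPKM in the controls and 6.07, 4.80 and 7.74 in the others (log2 fold change -0.20, SE 0.30). For both ferredoxins the groups overlapped.

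Heme is the cofactor of every P450, and all 8 genes of its synthesis on the list were tested. edgeR called 0 of them, 0 also at an unadjusted p under 0.05, and DESeq2 called 0, with a median log2 fold change of -0.12. *Alas*, the first enzyme of the pathway, had 84.8, 200 and 152 FPKM in the controls and 68.5, 102 and 97.1 in the *svp*-labelled libraries. Its log2 fold change was -0.85 (SE 0.50) with an adjusted p of 1.00 in edgeR, and *Luc* control replicate 1 lay among the other group. *Updo*, the uroporphyrinogen decarboxylase gene, was at 42.2 to 50.3 FPKM in the controls and 44.6 to 49.5 in the others (log2 fold change -0.07, SE 0.30).

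Among 12 regulators of detoxification genes, 11 were tested, edgeR and DESeq2 each called 0, and 0 had an unadjusted p under 0.05 in edgeR. Their median log2 fold change was 0.04. *cnc*, the fly Nrf2 gene, was at 48.5 to 72.5 FPKM in the controls and 63.6 to 80.2 in the *svp*-labelled libraries (log2 fold change 0.34, SE 0.18, unadjusted p of 0.0937 in edgeR). Its partner *maf-S* was at 65.6 to 77.2 FPKM in the controls and 64.4 to 71.3 in the others (log2 fold change -0.11, SE 0.22). *Luc* control replicate 1 had the highest level of both genes among the controls.

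The ecdysteroid enzymes of the same clan were compared as neighbours in function. Of *dib*, *sad* and *shd*, edgeR tested 2 and called 0, with 0 at an unadjusted p under 0.05, and DESeq2 called 0. *sad* was at 54.9 to 151 FPKM in the controls and 62.2 to 101 in the *svp*-labelled libraries, a control range that took in that of *Cyp12a4*, and *shd* at 0.867 to 1.02 and 0.776 to 1.51. The log2 fold changes were -0.42 (SE 0.54) for *sad* and 0.13 (SE 0.48) for *shd*. The list for the microsomal side held *Cpr*, the P450 reductase gene, *Cyt-b5*, the cytochrome b5 gene, and *Cyt-b5-r*, which encodes a cytochrome b5-related protein with a fatty acid desaturase domain and is not known as a P450 electron donor. In edgeR and DESeq2 0 of these 3 were called, with 0 at an unadjusted p under 0.05 in edgeR. On the log2 scale *Cpr* differed by -0.29 (SE 0.35), *Cyt-b5* by -0.41 (SE 0.41) and *Cyt-b5-r* by 0.52 (SE 0.45).

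Of the 76 other *Cyp* genes, 62 were tested and 2 were called by edgeR, both lower, against a background of 0.097%. These were *Cyp4e3* at a log2 fold change of -2.91 (SE 0.32, adjusted p of 0.0470) and *Cyp4p2* at -5.22 (SE 0.56, adjusted p of 0.0454). The estimate for *Cyp12d1-d* lay between these, but its standard error was close to that of *Cyp4p2* and its adjusted p in edgeR was above 0.05. Of the 62, 4 higher and 8 lower had an unadjusted p under 0.05 in edgeR, against a background of 4.99%, or 2.88% for lower genes alone. DESeq2 called 2 of the other *Cyp* genes higher and 5 lower, against a background of 1.23%, or 0.707% for lower genes alone. *Cyp4g1* and *Cyp6g1*, the most abundant of the others at means of 4870 and 428 FPKM over both groups, differed by -0.12 (SE 0.61) and 0.48 (SE 0.39) on the log2 scale. The median log2 fold change of the 62 genes was 0.06, beside -0.16 for the 9 mitochondrial clan genes, and no test of the difference between these lists was made.

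**Figure D5:**
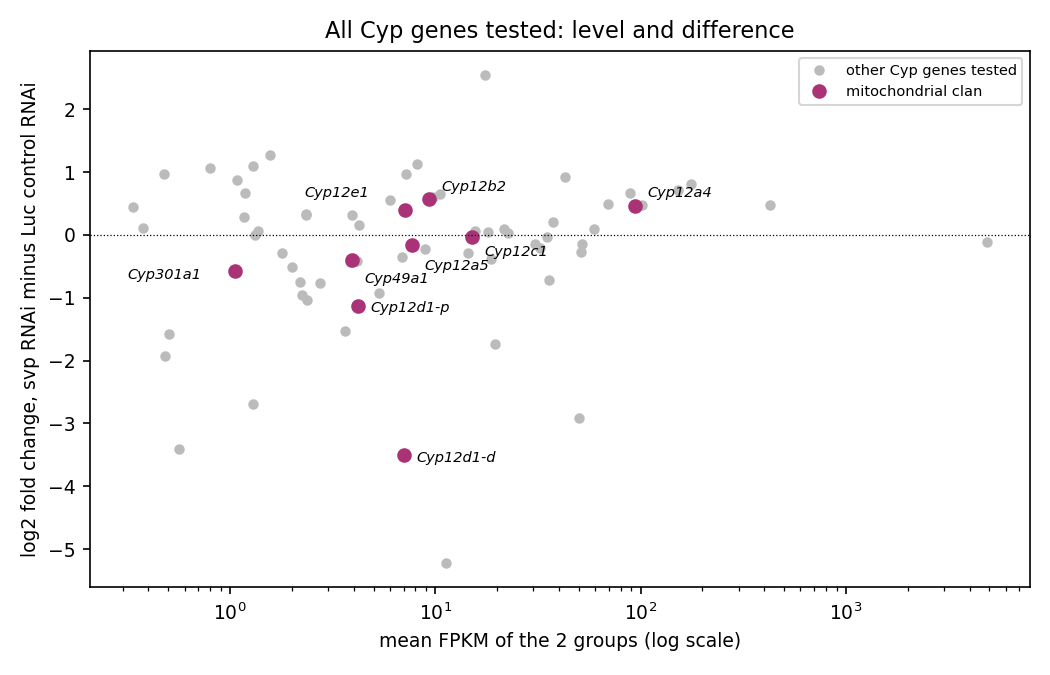
Log2 fold change in edgeR (*svp*-labelled libraries minus *Luc* control RNAi) against the mean FPKM of both groups (log axis), for the 9 mitochondrial clan genes (purple, named) and the 62 other *Cyp* genes tested (gray). *Cyp12d1-d* at -3.51 and *Cyp12d1-p* at -1.13 lie below the other 7 named genes, which fall between -0.57 and 0.57.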

How the data were processed

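Each sample was fat body RNA from 100 dissected females, and the methods name 3 independent experiments. The authors aligned paired reads with TopHat to the Ensembl reference and made whole-number counts per gene with HTSeq. Tool versions, the strand setting and the treatment of reads with several matches are not given in the sources used here. The deposited FPKM values equal these counts divided by the library total and the mean length of the annotated transcripts of a gene.

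Counts were filtered with filterByExpr (9277 of 17558 genes left) and compared by the quasi-likelihood test of edgeR 4.0.16 in R 4.3.3, with TMM scaling, p-values adjusted after Benjamini and Hochberg across every tested gene and called below 0.05. DESeq2 1.42.0, limma 3.58.1 on log2(FPKM + 1) and log2(FPKM + 0.1), other scalings and filters and fits without each library were alternatives. A fold change from limma on FPKM understates changes of low genes. Standard errors given for edgeR were worked back from its test, as the absolute log2 fold change divided by the square root of the F statistic. Ratios were compared by an exact two-sided permutation test. The 9 genes and all lists were chosen with earlier results of these data known. Genes of the electron transfer, heme, regulator and ecdysteroid lists were named if their unadjusted p was under 0.05 or if they were among the 2 most abundant of their list; *Cpr* and the cell type markers named were chosen after their values were seen; other *Cyp* genes if their adjusted p was under 0.05 or by the same abundance rule; and the 3 genes most like each of the 2 most abundant members. The symbol rule for *Cyp* genes also took *Cyp1*, a cyclophilin, which was left out. The BDGP6 annotation held 17252 of the identifiers, 16959 at the same coordinates.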

Additional observations from a re-analysis of the deposited data

How the results depend on the processing

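Among 151 recomputed log2 fold changes of the 9 genes, 128 kept their direction and their side of the threshold, 10 passed the threshold in the same direction and 13 changed sign, with adjusted p-values from 0.866 to 1.00. The 10 were *Cyp12d1-d* in 8 of 16 alternatives (log2 fold change -3.91 to -2.68 over all 16, adjusted p from 2.2e-15 to 0.425) and *Cyp12d1-p* in 2. The 9 genes called among all genes by edgeR became 14 with DESeq2 size factors, 25 with no filter, 27 with a replicate block, 146 with DESeq2, 55 and 53 with limma on log2(FPKM + 1) and log2(FPKM + 0.1), and 3 to 61 when 1 library was left out, 61 being without *Luc* control replicate 1. Chosen after seeing the data, DESeq2 without that library gave 478 and limma voom with sample quality weights 604. Of the 9 mitochondrial clan genes, 1 was called with no filter, with the replicate block, with DESeq2 and with limma on either FPKM scale, 0 to 1 when 1 library was left out, and 2 under both added alternatives. FPKM without overlap was found for 5 of them, and for 3 with CPM. Their share of all *Cyp* transcripts in the libraries labelled *svp* RNAi was 1.90% on CPM. The cause of these changes was not tested.

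*Cyp12c1* changed sign to 0.01 with upper quartile scaling, 0.10 with the replicate block, 0.13 and 0.15 with limma on log2(FPKM + 1) and log2(FPKM + 0.1), and ranged from -0.38 to 0.29 when 1 library was left out. The same ranges were -0.44 to 0.073 for *Cyp12a5*, -0.74 to 0.49 for *Cyp49a1* and -0.88 to 0.32 for *Cyp301a1*, each above 0 only without *Luc* control replicate 2. With quality weights *Cyp49a1* changed to 0.087 and *Cyp301a1* to 0.10. With the replicate block *Cyp12d1-d* had an adjusted p of 0.00664 in edgeR. Whether replicate numbers pair the samples could not be settled. Deviations of same-numbered libraries correlated at 0.503, 0.538 and -0.306. *Luc* control replicate 3 correlated best with library 2 of the other group (0.502). Deviations were taken from the mean of each group of 3, so a library cannot correlate positively with all 3 of the other group. With 3 libraries a group, p-values measure the spread between these libraries only, and *Cyp301a1*, with 21 to 73 counts, was the most limited by depth.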
